A study of Mus musculus with 23 samples.

Results

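Cd36, Ffar4, Ffar1, Ffar2, Ffar3, Gpr84, Kcna5, Stim1 and Orai1 are 9 genes through which taste bud cells are thought to sense dietary fat and pass the signal on. They were chosen by name in the array's probe annotation, where Ffar4 is written O3far1, and are 9 of 34791 gene symbols on the array and 12 of 55681 probes. All 9 genes passed the filter on dim probes. Arrays read the messenger RNA of 23 samples from male C57Bl6/j mice, each of the circumvallate papilla, a taste papilla at the back of the tongue that was cut out after enzymes had loosened the epithelium from the connective tissue. The 8 DIO-R samples are read here as obese mice whose food was cut to 60% of the energy eaten freely, although the labels do not spell DIO-R out. The 8 DIO samples came from mice on an obesogenic diet high in saturated fat, and the 7 Lean samples from mice on chow with 3% fat by weight. The labels name no mutation or transgene. They do not give the age of the mice, the length of the diets or whether each sample is 1 animal, so p-values measure the spread between samples, which can in part be technical.

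Free fatty acids released from fat by lipases reach the taste bud, where CD36, a surface protein that binds long-chain fatty acids, and GPR120, the receptor encoded by Ffar4, are regarded as the main fat sensors. Binding to CD36 is known to activate Src family kinases and to empty calcium stores, after which the store sensor STIM1 opens ORAI1 channels in the cell membrane. Delayed rectifier potassium channels, among them KCNA5, are blocked by polyunsaturated fatty acids in rodent taste cells, which favours depolarisation. FFAR2 and FFAR3 bind short-chain fatty acids, GPR84 binds medium-chain fatty acids, and FFAR1 binds long-chain fatty acids.

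The probes are 60 bases long, and 4 of them are shown. They are those of the taste sensor Ffar4 and of the neighbours Ffar1 and Ffar3, and the second probe of Kcna5, which did not follow the first. All are read 5′ to 3′ from the scanner files with positions of build mm9. The capitals in the last one mark its last 3 bases, TAA, a stop codon in the reading frame that starts at its first base.
Ffar4 probe, chr19:38188370-38188429, plus strand: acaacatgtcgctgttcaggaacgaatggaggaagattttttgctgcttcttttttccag
Ffar1 probe, chr7:31645724-31645783, minus strand: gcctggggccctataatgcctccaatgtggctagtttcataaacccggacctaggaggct
Ffar3 probe, chr7:31640309-31640368, minus strand: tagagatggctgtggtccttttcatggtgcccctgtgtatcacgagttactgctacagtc
Kcna5 second probe, chr6:126483373-126483432, minus strand: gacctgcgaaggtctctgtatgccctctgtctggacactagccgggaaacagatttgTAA

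The other probes lie at chr5:17288600-17288659 (Cd36, minus strand), chr7:31604149-31604208 (Ffar2, minus strand), chr15:103138670-103138729 (Gpr84, minus strand) and chr6:126482573-126482632 (the first Kcna5 probe, minus strand). The Stim1 probes lie at chr7:109585303-109585362 and chr7:109585312-109585371 on the plus strand and overlap by 51 bases. The Orai1 probes lie at chr5:123479844-123479903 and chr5:123480377-123480436 on the plus strand. Where in an exon the probes fall was not analysed here. The polyadenylation signal AATAAA, searched on the probe strand only, was found in the Gpr84 probe, the first Kcna5 probe and the second Stim1 probe, which is 3 of 12 probes of the members, against 5602 of all 55681 probes on the array.

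On each array 66.9% to 78.4% of probes cleared background, no spot was saturated, and arrays correlated with each other at 0.960 to 0.991. They lie on 3 slides of 8, 8 and 7 arrays, each with every group, and 202 of the 28231 genes kept (0.716%) differed between slides. All 20 markers of type I, II and III taste cells in the lists used were well above background on enough arrays to be kept, and so were all 15 markers of skeletal muscle, all 11 of adipocytes and all 8 of gland acini. Of the erythrocyte markers, 7 of 7 kept were lower in DIO-R than in DIO (median log2 difference -1.12, 7 at an unadjusted p under 0.05 in limma). In DIO against Lean 7 of 7 were higher (median 1.20, 6 at an unadjusted p under 0.05), and in DIO-R against Lean 6 of 7 (median 0.13). At an adjusted p under 0.05 there were 0, and no member correlated with the erythrocyte score at an adjusted p under 0.05. For these and later counts, 51.6% of all genes kept were higher in DIO-R than in DIO. In DIO against Lean 41.1% of all genes were higher, and in DIO-R against Lean 44.5%.

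Of the 12 probes, 11 were well above background on 23 of 23 arrays. The exception was Ffar1, which cleared background on 6 of 8 DIO-R arrays, 4 of 8 DIO arrays and 7 of 7 Lean arrays. Levels below are log2 of the intensity relative to the array's 75th percentile, so 0 is that percentile, and they can be compared between samples of 1 probe but not between probes.

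No member passed the test in any comparison. Between DIO-R and DIO, 0 of 9 members passed an adjusted p under 0.05 in limma, against 17 of all genes kept (0.0602%). Between DIO and Lean it was 0 of 9, against 1 of all genes (0.00354%), and between DIO-R and Lean 0 of 9, against 36 of all genes (0.128%). At an unadjusted p under 0.05 stood 2 members in DIO-R against DIO (all genes 9.72%), 0 in DIO against Lean (all genes 8.95%) and 2 in DIO-R against Lean (all genes 8.94%), both times Cd36 and Gpr84. The groups overlapped for every member in every comparison, while 0.0886%, 0.12% and 0.305% of all genes had groups that did not overlap in DIO-R against DIO, DIO against Lean and DIO-R against Lean. The median log2 difference over the 9 members was 0.01 in DIO-R against DIO (all genes 0.01), -0.07 in DIO against Lean (all genes -0.04) and -0.10 in DIO-R against Lean (all genes -0.02).

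**Figure D1:**
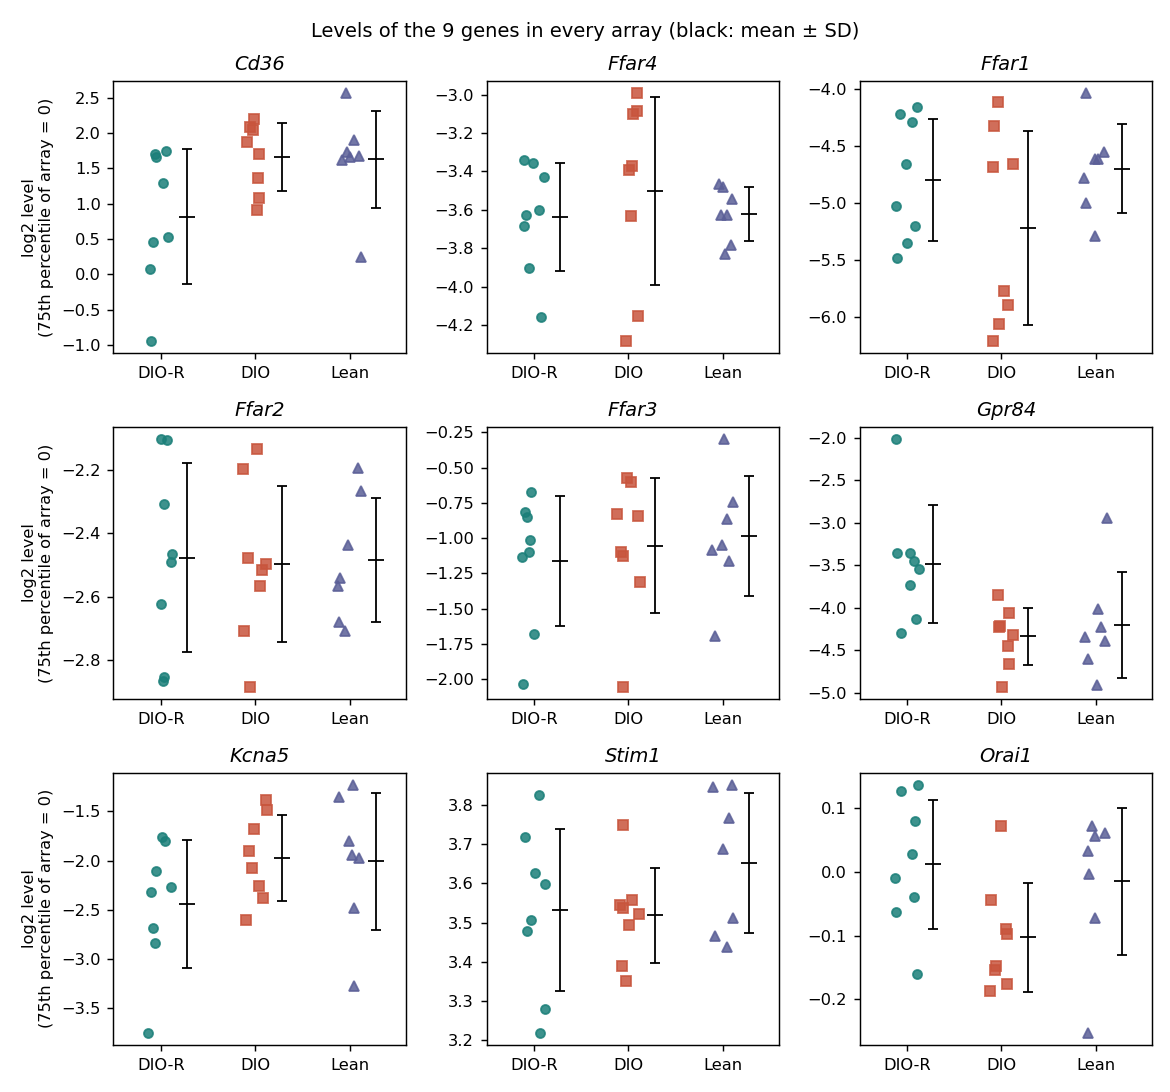
Level of each of the 9 genes on every array, as log2 relative to the array's 75th percentile (vertical axes differ between genes), for DIO-R (n = 8), DIO (n = 8) and Lean (n = 7), with mean ± SD in black. For Cd36 4 DIO-R arrays lie below every DIO array, for Gpr84 6 DIO-R arrays lie above every DIO array, and the groups overlap for all 9 genes.

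**Figure D2:**
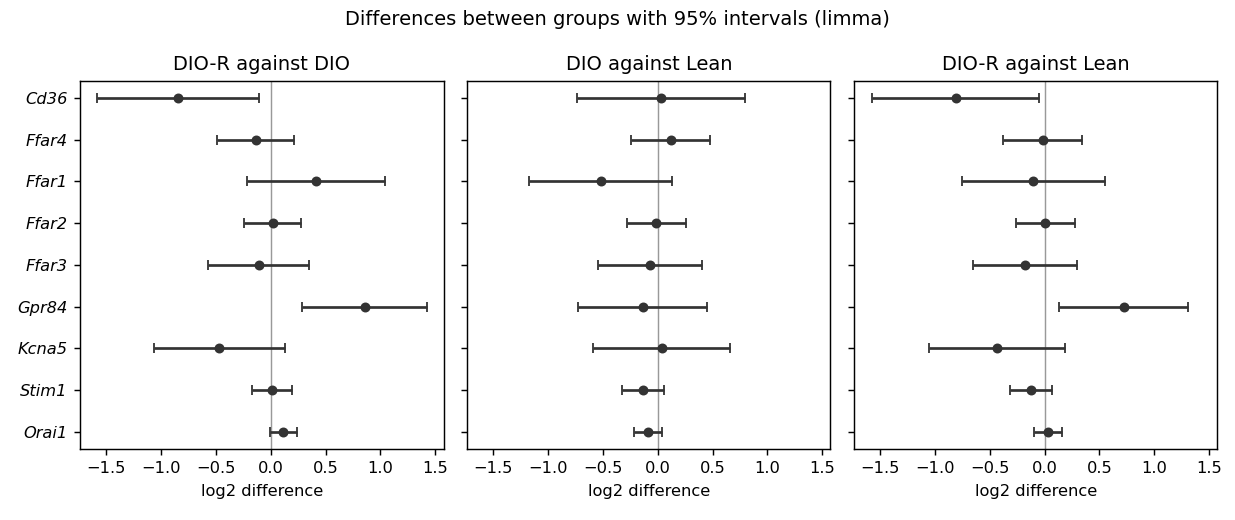
Log2 differences with 95% intervals from limma for the 9 genes in the 3 comparisons. The intervals are before correction for multiple testing; those of Cd36 and Gpr84 leave out 0 in DIO-R against DIO and in DIO-R against Lean, and no interval does in DIO against Lean.

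Cd36, the long-chain fatty acid receptor, had its lowest mean in DIO-R, without passing the test, and its level went with that of muscle and fat markers. On DIO-R arrays it had a lowest level of -0.94, a median of 0.91 and a highest level of 1.74. On DIO arrays these were 0.91, 1.79 and 2.20, and on Lean arrays 0.24, 1.67 and 2.56. DIO-R arrays were split: DIO-R 4, 5, 8 and 10 lay below all DIO arrays, and the others lay among the DIO and Lean arrays. The mean was 0.81 ± 0.96 in DIO-R, 1.66 ± 0.48 in DIO and 1.62 ± 0.69 in Lean (SD, n = 8, 8 and 7).

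Cd36 differed by -0.84 ± 0.36 SE in DIO-R against DIO (95% interval -1.58 to -0.11, a fold of 0.557), with 2 of 8 DIO-R samples above the DIO mean. In limma this had an unadjusted p of 0.0268 and an adjusted p of 0.493. Against Lean, DIO-R differed by -0.81 ± 0.37 SE (unadjusted p = 0.0385 and adjusted p = 0.523 in limma), with 3 of 8 samples above the Lean mean. DIO against Lean differed by 0.03 with a 95% interval of -0.73 to 0.80 (adjusted p = 0.991 in limma). Within slides 1, 2 and 3, DIO-R against DIO differed by -0.41, -1.60 and -0.26. Slide 2 holds 3 of the 4 low DIO-R arrays, and without DIO-R 5 alone the difference was -0.59. Within the slides DIO-R against Lean differed by -0.57, -1.76 and 0.32, so on slide 3, where the low Lean 3 lies, the sign was the other way.

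Markers of muscle and fat had lower means in DIO-R too. All 15 skeletal muscle markers were lower in DIO-R than in DIO (median log2 difference -0.61, 3 at an unadjusted p under 0.05 in limma, 0 at an adjusted one), and their summed intensity lay between 179641 and 820138 in DIO-R, between 390496 and 890251 in DIO and between 248541 and 1215750 in Lean. All 11 adipocyte markers were lower in DIO-R than in DIO (median -0.82, 5 at an unadjusted p under 0.05 in limma, 0 at an adjusted one), with summed intensities of 3412.59 to 14756.6 in DIO-R, 9005.8 to 19701.8 in DIO and 5700.06 to 38228.7 in Lean. In DIO-R against Lean 14 of 15 muscle markers were lower (median -0.58, 3 at an unadjusted p under 0.05 in limma) and 11 of 11 adipocyte markers (median -1.05, 8 at an unadjusted p under 0.05), with 0 at an adjusted p under 0.05. The brightest muscle markers were Tnnc2, Myh4 and Tnni2, all components of fast muscle fibres, and the brightest fat markers Fabp4, Plin4 and Lpl. Of the 11 fat markers, 8 cleared background on all 23 arrays, Adipoq and Cidec on 17 each and Pck1 on 14. With the muscle and fat scores as covariates, Cd36 differed by -0.27 in DIO-R against DIO (adjusted p = 0.763 in limma). Cd36 itself had r = 0.93 and 0.84 with these scores, group means removed, and the source of its difference was not tested. In whole papilla RNA, fewer cells of a type and less RNA per cell cannot be told apart.

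Across the 23 arrays, with group means removed, Cd36 rose and fell with the skeletal muscle score. A score is the mean over the kept markers of a list, without the members, of each marker's log2 level minus its own mean. Pearson's r was 0.93 and Spearman's rho 0.87 (permutation test with 100000 resamples, adjusted p = 0.000467 each over 140 pairs of probes and scores), 0.88 without DIO-R 5 and Lean 3, the arrays farthest from the median score, and 0.78, 0.86 and 0.98 within slides 1, 2 and 3. With the adipocyte score r was 0.84 and rho 0.83 (permutation adjusted p = 0.000467 each), 0.79 without DIO-R 7 and Lean 3, and 0.49, 0.69 and 0.96 within the slides. Before group means were removed, the muscle and fat scores had the same sign on every array except DIO-R 3, DIO 3 and Lean 10. Relations of a gene with muscle and with fat, here and below, are therefore not separate results. With the gland acini score r was 0.60 and rho 0.69 (permutation adjusted p = 0.0273 and 0.0098), 0.64 without DIO 6 and DIO 10, and 0.77, 0.56 and 0.63 within the slides. With the type II taste cell score, the cells that hold sweet, bitter and umami receptors, r was -0.48 and did not pass (permutation adjusted p = 0.129), while rho was -0.68 and passed (adjusted p = 0.0098), with r at -0.54 without DIO 1 and DIO 6 and at -0.18, -0.51 and -0.71 within the slides. With endothelium, too, rho passed and r did not (rho = 0.57, r = 0.51, permutation adjusted p = 0.0422 and 0.0976), with r at 0.54 without Lean 9 and DIO 3 and at 0.66, 0.54 and 0.66 within the slides.

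The 5 genes whose pattern over the 23 arrays was most like that of Cd36 were Lpl, the lipase of capillary walls in fat and muscle (r = 0.97), Plin5 and Plin4, coat proteins of lipid droplets (0.97 each), Slc2a4, the insulin-regulated glucose transporter of muscle and fat (0.97), and Lrrc39, a muscle protein (0.96). Lpl and Plin4 are themselves in the adipocyte list. These values describe the same 23 arrays with group means removed, and carry no test.

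**Figure D3:**
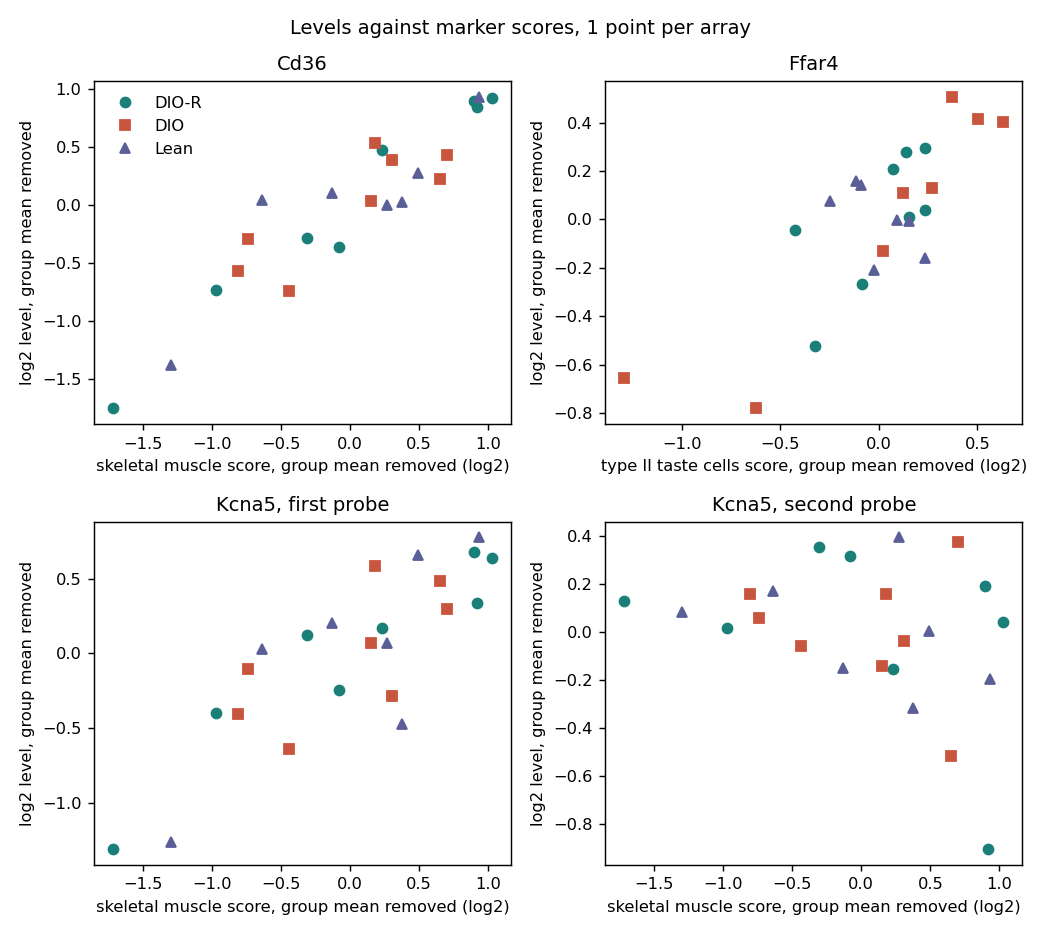
Level against marker score on each of 23 arrays, both in log2 with the group mean removed, for Cd36 and both Kcna5 probes against the skeletal muscle score and for Ffar4 against the type II taste cell score. Cd36 (r = 0.93) and the first Kcna5 probe (r = 0.83) climb with the muscle score, the second Kcna5 probe does not (r = -0.33), and Ffar4 climbs with the taste cell score (r = 0.79).

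Ffar4, the receptor for long-chain fatty acids known as GPR120, had group means closer together than the spread within the groups, and its level went with that of taste cell markers. On DIO-R arrays its lowest, median and highest levels were -4.16, -3.61 and -3.34. On DIO arrays they were -4.28, -3.38 and -2.99, and on Lean arrays -3.83, -3.63 and -3.46. DIO was the most spread group, with DIO 1 and DIO 6 low and DIO 2, 3 and 10 above every DIO-R and Lean array. Ffar4 differed by -0.14 ± 0.17 SE in DIO-R against DIO (95% interval -0.48 to 0.21, adjusted p = 0.773 in limma), by 0.12 ± 0.17 SE in DIO against Lean (-0.24 to 0.48, adjusted p = 0.889) and by -0.02 ± 0.17 SE in DIO-R against Lean (-0.37 to 0.34, adjusted p = 0.985).

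DIO 1 and DIO 6 were also the DIO arrays lowest in type II taste cell markers. The 10 markers of that list, led by Tas1r2, Gnat3 and Trpm5, had summed intensities of 3610.24 to 6396.55 in DIO-R, 867.866 to 5942.95 in DIO and 3320.27 to 5237.14 in Lean, and 9 of 10 were higher in DIO-R than in DIO (median 0.28) and 9 of 10 lower in DIO than in Lean (median -0.28), with 0 at an adjusted p under 0.05 in limma and 1 each at an unadjusted one. Without DIO 1 and DIO 6, left out after the data were seen, Ffar4 differed by -0.38 in DIO-R against DIO (adjusted p = 0.591 in limma) and by 0.36 in DIO against Lean (adjusted p = 0.25). With the type II score as covariate these were -0.32 (adjusted p = 0.645 in limma) and 0.26 (adjusted p = 0.396).

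With group means removed, Ffar4 correlated with all 3 taste cell scores over 23 arrays. With the type II score r was 0.79 and rho 0.67 (permutation adjusted p = 0.00084 and 0.0098), 0.65 without DIO 1 and DIO 6, and 0.86, 0.84 and 0.79 within slides 1, 2 and 3. With the score of type III cells, the sour-sensing cells, r was 0.76 and rho 0.82 (permutation adjusted p = 0.0007 and 0.000467), 0.81 without DIO 1 and DIO 2, and 0.91, 0.91 and 0.81 within the slides. With the score of type I cells, the glia-like cells of the bud, which rests on 3 markers, r was 0.73 and rho 0.60 (permutation adjusted p = 0.00117 and 0.0259), 0.65 without DIO 1 and DIO 10, and 0.90, 0.85 and 0.48 within the slides. Which of these cell types holds Ffar4 was not tested. Ffar4 fell as the gland acini score rose, with r and rho of -0.61 and -0.60 (permutation adjusted p = 0.0248 and 0.0259), -0.42 without DIO 6 and DIO 10, and -0.24, -0.78 and -0.54 within the slides.

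The genes most like Ffar4 over the 23 arrays were Tmem28 (r = 0.88), the bitter taste receptors Tas2r126 and Tas2r138 (0.88 each), Micall1 (0.87) and a probe with no gene name (0.87). None of them is in a marker list used for the scores.

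**Figure D4:**
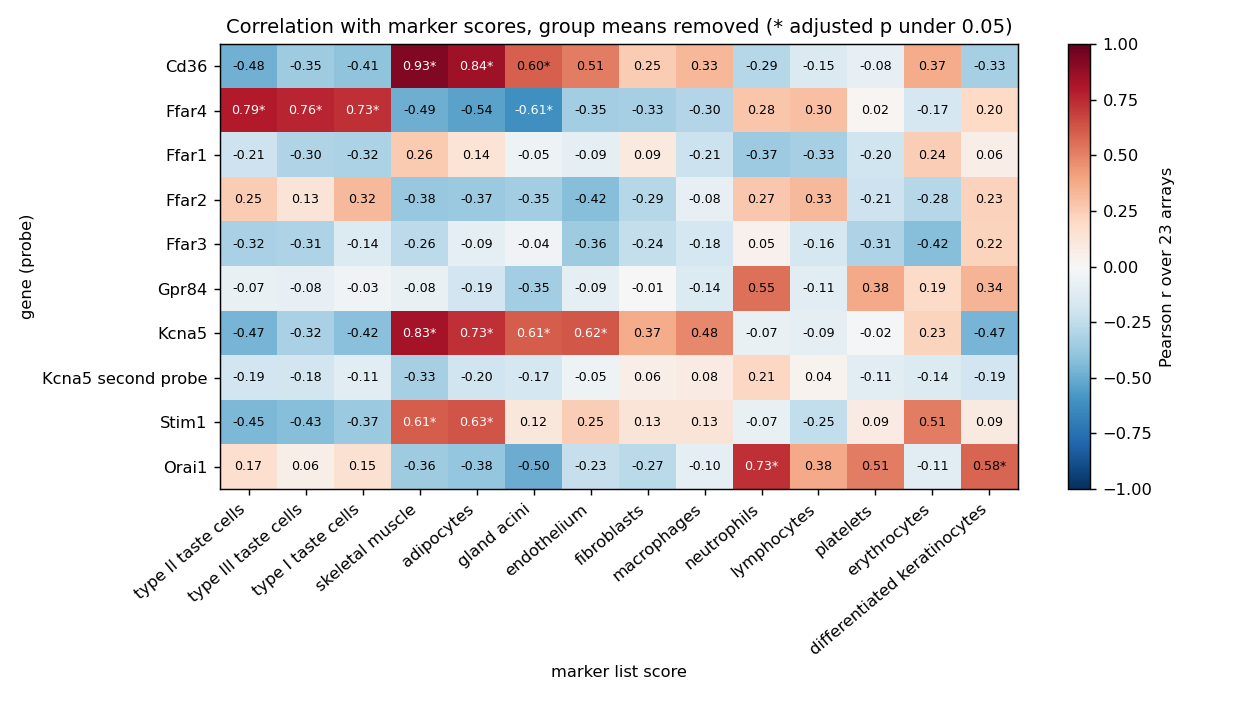
Pearson r over 23 arrays, group means removed, between each gene or probe (rows) and each of 14 marker scores (columns), with * where the permutation adjusted p was under 0.05 (15 of 140 pairs). Cd36 and the first Kcna5 probe are high in the muscle and fat columns, Ffar4 in the taste cell columns, and Ffar1, Ffar2, Ffar3 and Gpr84 have no starred cell.

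Cd36 and Ffar4 ran in opposite directions by rank. Their levels over the 23 arrays had r = -0.53 and rho = -0.59 (permutation adjusted p = 0.0929 and 0.0478 over 36 pairs of members), -0.61 without DIO-R 5 and Lean 3, and -0.19, -0.62 and -0.59 within slides 1, 2 and 3, so the rank correlation passed and Pearson's did not.

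Ffar1, the other long-chain fatty acid receptor, best known from pancreatic beta cells, was near background. Its lowest, median and highest levels were -5.48, -4.84 and -4.15 on DIO-R arrays. They were -6.21, -5.23 and -4.12 on DIO arrays and -5.29, -4.62 and -4.04 on Lean arrays. DIO fell into a lower set of 4 arrays and a higher set of 4, and 3 of the 4 low ones were on slide 2. Ffar1 differed by 0.42 ± 0.30 SE in DIO-R against DIO (adjusted p = 0.632 in limma), by -0.52 ± 0.31 SE in DIO against Lean (adjusted p = 0.673) and by -0.10 ± 0.31 SE in DIO-R against Lean (adjusted p = 0.937). Within slides 1, 2 and 3 DIO against Lean differed by -0.23, -1.09 and 0.02. With normexp background correction Ffar1 differed by 0.05 in DIO-R against DIO (adjusted p = 0.902 in limma). In DIO against Lean it was then -0.13 (adjusted p = 0.833) and in DIO-R against Lean -0.08 (adjusted p = 0.836).

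Ffar2 and Ffar3, receptors for acetate, propionate and butyrate whose genes neighbour Ffar1 on chromosome 7, had close to the same medians in the 3 groups. Ffar2 had medians of -2.48 in DIO-R, -2.51 in DIO and -2.54 in Lean, within a range of -2.88 to -2.10 over all arrays. It differed by 0.02 ± 0.13 SE in DIO-R against DIO (95% interval -0.24 to 0.28, adjusted p = 0.957 in limma), by -0.01 ± 0.13 SE in DIO against Lean (-0.28 to 0.26, adjusted p = 0.989) and by 0.01 ± 0.13 SE in DIO-R against Lean (-0.26 to 0.28, adjusted p = 0.99).

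Ffar3 had medians of -1.06 in DIO-R, -0.97 in DIO and -1.05 in Lean, but single arrays were much lower, at -2.03 for DIO-R 3, -2.05 for DIO 2 and -1.70 for Lean 6. It differed by -0.11 ± 0.22 SE in DIO-R against DIO (95% interval -0.57 to 0.35, adjusted p = 0.871 in limma), by -0.07 ± 0.23 SE in DIO against Lean (-0.55 to 0.41, adjusted p = 0.958) and by -0.18 ± 0.23 SE in DIO-R against Lean (-0.65 to 0.30, adjusted p = 0.833). Within slides 1, 2 and 3 the difference of DIO-R against DIO was -0.85, 0.00111 and 0.42, that of DIO against Lean 0.02, 0.37 and -0.75, and that of DIO-R against Lean -0.83, 0.37 and -0.33. Ffar3 passed with no marker score, but single genes had nearly its pattern: Sass6, a centriole protein (r = 0.95), and Nup214, a nuclear pore protein (0.93), were among the 5 most like it. For Ffar2 the named genes most like it were Rpap1 and Cd207 (0.73 each), Rbm14 (0.72) and Iqcc (0.71), and for Ffar1 they were Rgs7 (0.80), 1700029P11Rik (0.80), Defa-rs12 (0.79) and Olfr96 (0.77). Cd207 is the Langerhans cell protein langerin.

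Gpr84, the medium-chain fatty acid receptor, known mainly from macrophages and neutrophils, had its highest mean in DIO-R, without passing the test. On DIO-R arrays its lowest, median and highest levels were -4.29, -3.49 and -2.02. On DIO arrays they were -4.93, -4.28 and -3.84, and on Lean arrays -4.90, -4.35 and -2.94. DIO-R 4 and Lean 4 stood well above the other arrays of their groups, and 6 of 8 DIO-R arrays lay above every DIO array. The mean was -3.48 ± 0.69 in DIO-R, -4.34 ± 0.34 in DIO and -4.20 ± 0.62 in Lean (SD, n = 8, 8 and 7). The Gpr84 probe was dim, with a median unscaled intensity of 24.5 and a lowest of 13.4, below the offset of 50 that the normexp correction adds.

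Gpr84 differed by 0.85 ± 0.27 SE in DIO-R against DIO (95% interval 0.29 to 1.42, a fold of 1.81), with 8 of 8 DIO-R samples above the DIO mean, yet in limma the unadjusted p was 0.00504 and the adjusted p 0.438. DIO-R against Lean differed by 0.72 ± 0.28 SE (unadjusted p = 0.0189 and adjusted p = 0.444 in limma), with 7 of 8 above the Lean mean. This was 0.20 with normexp background correction (adjusted p = 0.685 in limma), 0.41 in the authors' value table (adjusted p = 0.382 in limma), 0.43 with the muscle and fat scores as covariates (adjusted p = 0.943 in limma), and 0.62, 1.40 and 0.25 within slides 1, 2 and 3. DIO against Lean differed by -0.13 ± 0.28 SE (adjusted p = 0.929 in limma). In DIO-R against DIO the difference was 0.64 without DIO-R 4, 0.28 with normexp background correction (adjusted p = 0.554 in limma), 0.43 in the authors' value table (adjusted p = 0.359 in limma), and 0.92, 1.34 and 0.30 within slides 1, 2 and 3.

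Myeloid markers did not all go the way of Gpr84. Of 12 macrophage markers, 11 were lower in DIO-R than in DIO (median -0.32, 4 at an unadjusted p under 0.05 in limma and 0 at an adjusted one), with summed intensities of 10550.4 to 18914 in DIO-R, 11200.5 to 23966.1 in DIO and 11438.2 to 22434.1 in Lean. In DIO against Lean 10 of 12 were higher (median 0.23, 3 at an unadjusted p under 0.05 in limma), among them Aif1, the 1 gene called there (adjusted p = 0.00775 in limma), and in DIO-R against Lean 6 of 12 were higher (median 0.03). Of the 7 neutrophil markers kept out of 8, 5 were higher in DIO-R than in DIO (median 0.23, 0 at an unadjusted p under 0.05 in limma). Unscaled summed intensities of all 8 were 29177.3 to 56143.3 in DIO-R, 29580.8 to 42168.4 in DIO and 20440.3 to 42773.3 in Lean. These sums are mostly Csf3r, whose median intensity over all arrays was 32816.1, against 616.381 for Elane, the next brightest. Gpr84 and the neutrophil score had r = 0.55 and rho = 0.25 and did not pass (permutation adjusted p = 0.0572 for r), and r was 0.29 without Lean 7 and DIO-R 4, the arrays farthest from the median score, but 0.72, 0.68 and 0.75 within slides 1, 2 and 3. The part of these cells in the Gpr84 values was not tested. Named genes most like Gpr84 were Gm9372 (r = 0.74), LOC628110 (0.71) and Trim30c (0.70).

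Kcna5, the voltage-gated potassium channel Kv1.5, gave different answers from its 2 probes. The first probe had a lowest, median and highest level of -3.75, -2.29 and -1.76 on DIO-R arrays. They were -2.61, -1.99 and -1.39 on DIO arrays and -3.27, -1.94 and -1.23 on Lean arrays. DIO-R 5, 8 and 10 lay below every DIO array, and Lean 3 was the lowest of its group. The first probe differed by -0.47 ± 0.29 SE in DIO-R against DIO (95% interval -1.07 to 0.13, adjusted p = 0.581 in limma), by 0.04 ± 0.30 SE in DIO against Lean (adjusted p = 0.985) and by -0.43 ± 0.30 SE in DIO-R against Lean (adjusted p = 0.694). Within slides 1, 2 and 3, DIO-R against DIO differed by -0.50, -0.94 and 0.24, and with the muscle and fat scores as covariates by -0.09 (adjusted p = 0.904 in limma). Without DIO-R 5, DIO-R against DIO differed by -0.28. Within the slides DIO-R against Lean differed by -0.50, -1.01 and 0.46.

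The second probe, which ends in TAA and starts 800 bases from the first, had medians of -2.40 in DIO-R, -2.36 in DIO and -2.26 in Lean. In a fit over all probes kept it differed by -0.12 ± 0.15 SE in DIO-R against DIO (adjusted p = 0.812 in limma), by -0.10 ± 0.16 SE in DIO against Lean (adjusted p = 0.916) and by -0.22 ± 0.16 SE in DIO-R against Lean (adjusted p = 0.73). The 2 probes did not rise and fall together: r was -0.15 and rho -0.09 with group means removed (permutation adjusted p = 0.493 and 0.677 over 3 probe pairs), -0.10 without DIO-R 5 and Lean 3, and 0.06, 0.44 and -0.08 within slides 1, 2 and 3. DIO-R 5 was lowest on the first probe and in the middle of its group on the second. Which of the 2 probes reports the Kcna5 transcript was not tested.

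The first Kcna5 probe followed skeletal muscle, with r = 0.83 and rho = 0.78 (permutation adjusted p = 0.000467 and 0.0007), 0.71 without DIO-R 5 and Lean 3, and 0.57, 0.84 and 0.91 within slides 1, 2 and 3. With the adipocyte score r was 0.73 and rho 0.69 (permutation adjusted p = 0.0028 and 0.0098), 0.64 without DIO-R 7 and Lean 3, and 0.24, 0.62 and 0.87 within the slides. It also passed with the endothelium score (r = 0.62, rho = 0.68, permutation adjusted p = 0.0248 and 0.0098, 0.58 without DIO 3 and Lean 9, and 0.83, 0.64 and 0.68 within the slides). With the gland acini score r was 0.61 and rho 0.63 (permutation adjusted p = 0.0248 and 0.0168), 0.65 without DIO 6 and DIO 10, and 0.54, 0.55 and 0.71 within the slides. With type II taste cells rho passed and r did not (rho = -0.61, r = -0.47, permutation adjusted p = 0.0224 and 0.139), with r at -0.51 without DIO 1 and DIO 6 and at -0.20, -0.53 and -0.64 within the slides.

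The second Kcna5 probe passed with none of the 14 scores and had r = -0.33 with skeletal muscle (permutation adjusted p = 0.328). The first probe and Cd36 had r = 0.91 and rho = 0.87 (permutation adjusted p = 0.00036 each over 36 pairs), 0.82 without DIO-R 5 and Lean 3, and 0.60, 0.98 and 0.94 within the slides. The genes most like the first probe were Gpihbp1, which anchors lipoprotein lipase in capillaries and is in the endothelium list (r = 0.92), Lrrn1 (0.92), Myoz2, a sarcomere protein (0.92), Slc28a2, a nucleoside transporter (0.91), and C1qtnf9 (0.91). The named genes most like the second probe, looked up after its values were seen, were Igf2 and Pga5 (0.92 each).

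**Figure D5:**
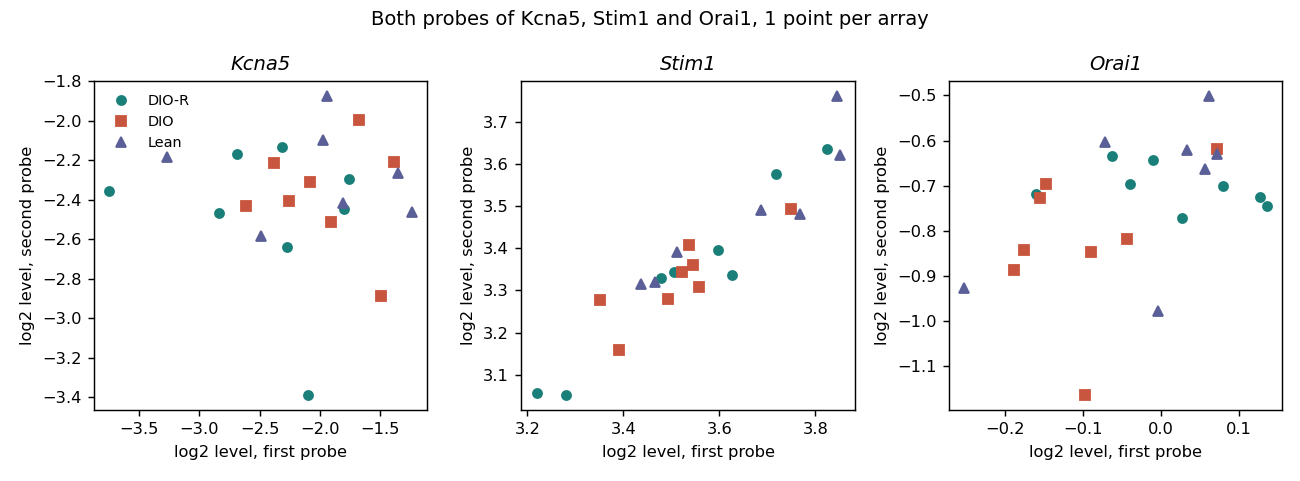
Level on the second probe against level on the first, in log2 relative to the array's 75th percentile, for Kcna5, Stim1 and Orai1, with 1 point for each of 23 arrays. The Kcna5 probes show no relation (r = -0.15 with group means removed), the overlapping Stim1 probes fall on a line (0.93), and the Orai1 probes scatter (0.32).

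Stim1, the calcium sensor of the store membrane, had its highest mean in Lean, without passing the test. Its first probe had a lowest, median and highest level of 3.22, 3.55 and 3.82 on DIO-R arrays. They were 3.35, 3.53 and 3.75 on DIO arrays and 3.44, 3.69 and 3.85 on Lean arrays. The groups overlapped, with 1 of 8 DIO arrays and 2 of 8 DIO-R arrays above the Lean mean and 4 of 8 DIO-R arrays above the DIO mean. Stim1 differed by 0.01 ± 0.09 SE in DIO-R against DIO (95% interval -0.17 to 0.20, adjusted p = 0.963 in limma), by -0.13 ± 0.09 SE in DIO against Lean (-0.33 to 0.06, adjusted p = 0.724) and by -0.12 ± 0.09 SE in DIO-R against Lean (-0.31 to 0.07, adjusted p = 0.715).

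Its second probe, which shares 51 of its bases with the first, differed by 0.01, -0.15 and -0.14 in the same comparisons and moved with it (r = 0.93, rho = 0.88, permutation adjusted p = 3e-05 each, 0.91 without DIO-R 7 and DIO-R 8, and 0.83, 0.83 and 0.99 within slides 1, 2 and 3). Stim1 correlated with the adipocyte score at r = 0.63 and rho = 0.66 (permutation adjusted p = 0.0208 and 0.0098), 0.52 without DIO-R 7 and Lean 3, but within slides 1, 2 and 3 r was 0.68, -0.01 and 0.80. With skeletal muscle it was r = 0.61 and rho = 0.68 (permutation adjusted p = 0.0248 and 0.0098), 0.76 without DIO-R 5 and Lean 3, and 0.60, 0.19 and 0.69 within the slides. STIM1 is known to act in muscle calcium handling. Stim1 and Cd36 had r = 0.54 and rho = 0.59 (permutation adjusted p = 0.0929 and 0.0478 over 36 pairs), 0.71 without DIO-R 5 and Lean 3, and 0.51, 0.01 and 0.72 within the slides. Among the genes most like it were Hadha, an enzyme of fatty acid oxidation (r = 0.81), A030001D16Rik (0.79) and Pcyt1a, an enzyme of phosphatidylcholine synthesis (0.78).

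Orai1, the pore of the store-operated channel, had the narrowest spread of the 9 genes. Its first probe had a lowest, median and highest level of -0.16, 0.01 and 0.14 on DIO-R arrays. They were -0.19, -0.12 and 0.07 on DIO arrays and -0.25, 0.03 and 0.07 on Lean arrays. Of the DIO arrays, 7 of 8 lay below both the DIO-R and the Lean median. Orai1 differed by 0.12 ± 0.06 SE in DIO-R against DIO (95% interval -0.01 to 0.24, adjusted p = 0.528 in limma), with 7 of 8 DIO-R samples above the DIO mean, by -0.09 ± 0.06 SE in DIO against Lean (adjusted p = 0.731) and by 0.03 ± 0.06 SE in DIO-R against Lean (adjusted p = 0.911). Within slides 1, 2 and 3, DIO-R against DIO differed by 0.14, 0.14 and 0.09.

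The second Orai1 probe, starting 533 bases away, differed by 0.12 ± 0.08 SE, -0.12 ± 0.08 SE and -0.000599 ± 0.08 SE in DIO-R against DIO, DIO against Lean and DIO-R against Lean (adjusted p = 0.625, 0.739 and 0.999 in limma over all probes kept). That fit called 0 of the 12 member probes in each comparison, against 0.0407%, 0.0024% and 0.0958% of all probes kept. The probes had r = 0.32 and rho = 0.20 (permutation adjusted p = 0.201 and 0.517), 0.16 without Lean 7 and DIO-R 8, and 0.31, 0.48 and 0.43 within slides 1, 2 and 3. Orai1 correlated with the neutrophil score, whose brightest markers are Csf3r and Elane, at r = 0.73 and rho = 0.66 (permutation adjusted p = 0.002 and 0.0107), 0.63 without Lean 7 and DIO-R 4, and 0.61, 0.67 and 0.57 within the slides. Of the other neutrophil markers, Ly6g, Cxcr2, Camp and Retnlg cleared background on all 23 arrays. Mpo did so on 8 and Ngp on 4, and Ngp was not kept. Whether the score reads neutrophils was not tested. With differentiated keratinocytes Orai1 had r = 0.58 and rho = 0.52 (permutation adjusted p = 0.0328 and 0.0671), 0.47 without Lean 7 and DIO 3, and 0.79, 0.36 and 0.70 within the slides. The named genes most like Orai1 were Gpat2 (r = 0.78), Blvrb (0.76), A930009A15Rik, Vps37c and Myl7 (0.75 each).

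Around the members, 66 genes of the same pathways were followed in 7 lists, of which 65 were on the array and 60 were kept. None passed in any comparison. At an unadjusted p under 0.05 in limma were 10 of 60 in DIO-R against DIO (16.7%), 4 in DIO against Lean (6.67%) and 5 in DIO-R against Lean (8.33%), against 9.72%, 8.95% and 8.94% of all genes. Hcar1, Gpr55 and Fabp1 cleared background on no array, Pnlip on 4 and Gcg on 5, and these were not kept. Beside the counts below, 51.6% of all genes kept were higher in DIO-R than in DIO. In DIO against Lean it was 41.1%, and in DIO-R against Lean 44.5%.

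In the taste cascade downstream of the receptors, 7 of 8 genes kept were higher in DIO-R than in DIO (median 0.23), 1 of 8 was higher in DIO than in Lean (median -0.14) and 6 of 8 were higher in DIO-R than in Lean (median 0.04). The lowest p in DIO-R against DIO belonged to Itpr3, the calcium release channel of type II cells, at 0.27 ± 0.10 SE (adjusted p = 0.48 in limma). In DIO against Lean it belonged to Trpm5, the cation channel that depolarises them, at -0.36 ± 0.30 SE (adjusted p = 0.787), and in DIO-R against Lean to Trpm4, its relative, at 0.19 ± 0.10 SE (adjusted p = 0.6). Gnat3, Plcb2 and Trpm5 are in the type II marker list too, so these lists share genes.

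Among the kinases linked to CD36, 6 of 8 were higher in DIO-R than in DIO, 3 of 8 higher in DIO than in Lean and 4 of 8 higher in DIO-R than in Lean. Lyn, a Src family kinase, differed by 0.31 ± 0.12 SE in DIO against Lean (adjusted p = 0.467 in limma) and by 0.33 ± 0.12 SE in DIO-R against Lean (adjusted p = 0.415), comparisons that share the Lean arrays. Map2k1, the kinase that activates ERK, differed by 0.17 ± 0.08 SE in DIO-R against DIO (adjusted p = 0.517).

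Of the partners of store-operated calcium entry, 3 of 8 were higher in each of the 3 comparisons. Stim2, the second store sensor, differed by 0.23 ± 0.09 SE in DIO-R against DIO (adjusted p = 0.48 in limma) and by 0.23 ± 0.09 SE in DIO-R against Lean (adjusted p = 0.448), which share the DIO-R arrays. Trpc1, a channel of the TRPC family, differed by -0.19 ± 0.14 SE in DIO against Lean (adjusted p = 0.756).

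Of the voltage-gated potassium channels listed beside Kcna5, 7 of 11 were higher in DIO-R than in DIO. In DIO against Lean 3 of 11 were higher, and in DIO-R against Lean 4 of 11. Kcna6 differed by 0.37 ± 0.16 SE in DIO-R against DIO (adjusted p = 0.493 in limma) and by -0.43 ± 0.16 SE in DIO against Lean (adjusted p = 0.422), which share the DIO arrays. Kcnc4 differed by -0.76 ± 0.25 SE in DIO-R against Lean (adjusted p = 0.301).

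Among other receptors for lipids and metabolites, 4 of 5 kept were higher in DIO-R than in DIO, 1 of 5 higher in DIO than in Lean and 2 of 5 higher in DIO-R than in Lean. Gpr119, a receptor for fatty acid amides, differed by -0.99 ± 0.40 SE in DIO against Lean (adjusted p = 0.465 in limma). Gpr119 was near background, which it cleared on only 13 arrays, with a median unscaled intensity of 10.5. The succinate receptor Sucnr1 differed by -1.12 ± 0.37 SE in DIO-R against DIO (adjusted p = 0.45) and by -0.68 ± 0.38 SE in DIO-R against Lean (adjusted p = 0.63). Sucnr1 was near background as well, clearing it on only 14 arrays, with a median unscaled intensity of 12.2. How far noise near background enters the differences of Gpr119 and Sucnr1 was not tested.

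Of the fatty acid binding proteins and lipases, 4 of 10 kept were higher in DIO-R than in DIO, 4 of 10 higher in DIO than in Lean and 2 of 10 higher in DIO-R than in Lean. Fabp4, the binding protein of fat cells and capillaries, differed by -0.82 ± 0.31 SE in DIO-R against DIO (adjusted p = 0.48 in limma), Lpl by -1.05 ± 0.41 SE in DIO-R against Lean (adjusted p = 0.435), and both are in the adipocyte list. Pnliprp2, a pancreatic lipase relative, differed by -0.90 ± 0.42 SE in DIO against Lean (adjusted p = 0.541). Pnliprp2 was dim, clearing background on only 17 arrays, with a median unscaled intensity of 20.65. Of the transmitter and peptide genes of taste cells, 8 of 10 kept were higher in DIO-R than in DIO, 2 of 10 higher in DIO than in Lean and 7 of 10 higher in DIO-R than in Lean. Slc18a1, a vesicular monoamine transporter, had the lowest p in each, at 0.37 ± 0.12 SE, -0.14 ± 0.13 SE and 0.23 ± 0.13 SE (adjusted p = 0.449, 0.82 and 0.615 in limma).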

How the data were processed

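RNA of 23 papilla samples was labelled from 25 ng each and hybridised to 1-colour Agilent arrays, per the labels. The deposited scanner files hold intensity values that Feature Extraction 10.10.1.1 had background-subtracted within an array, as their headers state. The authors deposited a log2 value table too, whose normalization is not given in the sources used here (limma is named in the submitters' processing notes); it served as an alternative and lacks the Ffar1 probe.

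Levels are log2 intensity minus the array's 75th percentile over non-control spots; spots flagged as outliers were dropped and spots of a probe averaged. A gene is its probe with the highest mean, kept if well above background on at least 7 of 23 arrays (28231 genes, 28218 with a value on every array). Current symbols came from RefSeq genes of GRCm38.p6, which 27235 probes matched. limma 3.58.1 (R 4.3.3, lmFit and eBayes, two-sided, all 23 arrays, group means) was run over all genes with Benjamini-Hochberg adjustment, threshold 0.05, after it was tested on simulated data. Correlations used Python 3.11.15 with two-sided permutation tests. Values were shuffled over all 23 arrays after group means were removed, not within groups or slides, so permutation p-values near 0.05 are approximate. Named genes are the members, the 5 genes most like each (some are not reported here), and the lowest p of each pathway list. Members and lists were chosen with earlier results of these data known. Alternatives covered background, scaling, filters, probes, blocks, covariates and left-out arrays. The number of arrays, 7 or 8 a group, limits the precision.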

Additional observations from a re-analysis of the deposited data

Results flagged for a closer look

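In 36 sets of values (12 probes in 3 groups), 3 arrays stood apart from the rest of their group by Dixon's criterion, which chance meets in about 1 of 20 sets. For Cd36, Lean 3 was at 0.2391, and the nearest Lean array was at 1.6205; it is also the Lean array with the lowest skeletal muscle score. For Gpr84, DIO-R 4 was at -2.0154, and the nearest DIO-R array was at -3.3514. For the second Kcna5 probe, DIO-R 3 was at -3.3889, and the nearest DIO-R array was at -2.6398, while the first Kcna5 probe had DIO-R 3 inside its group.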

How the results depend on the processing

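With 7 or 8 arrays a group, no member passed in any of the 69 counts that leave out 1 array or in any other setting run. Over all genes, calls numbered 17, 1 and 36 (DIO-R against DIO, DIO against Lean, DIO-R against Lean). They moved to 4, 0 and 9 with the replicate block; in DIO-R against DIO to 27 with quantile scaling and 26 in the authors' table; in DIO against Lean to 2 with normexp, 9 in the authors' table, 3 with the slide block and 3 with trend and robust eBayes. The cause was not tested. Samples with the same replicate number correlated at -0.21 to 0.16, -0.24 to 0.32 and -0.37 to 0.33 in these comparisons, over 0.1 in 1 of 7, 2 of 5 and 1 of 6 pairs. So few pairs cannot settle whether the numbers pair the samples. The replicate block called no member. Ffar1 has no value in the authors' table or when all 23 arrays must clear background. Leaving out DIO 1 and DIO 6 was chosen after the data were seen.

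Within single slides, which hold 2 or 3 arrays a group, larger differences changed sign too: on slide 3, DIO-R against Lean was 0.32 for Cd36 and 0.46 for Kcna5, and DIO-R against DIO was 0.24 for Kcna5 and 0.42 for Ffar3. With all slides, these changes of sign were seen. In DIO-R against DIO, Ffar2 was -0.073 with muscle and fat covariates, -0.021 with the type II covariate and -0.040 without DIO 1 and DIO 6, where Ffar3 was 0.0087, and Stim1 was -0.019 with quantile scaling. In DIO against Lean, Cd36 was -0.065 with the replicate block, -0.010 with muscle and fat covariates, -0.15 with type II and -0.13 without DIO 1 and DIO 6; Kcna5 was -0.011, -0.017, -0.11 and -0.11 there, -0.033 as a mean of probes and -0.10 on its second probe; Ffar2 was 0.024 with quantile scaling, 0.023 with the replicate block, 0.020 with type II and 0.048 without DIO 1 and DIO 6; Gpr84 was 0.12 with the replicate block and Ffar3 0.027 with muscle and fat. In DIO-R against Lean, Ffar2 was -0.036 with normexp, -0.019 with the slide block, -0.088 with muscle and fat and -0.000784 with type II; Ffar4 was 0.058 with quantile scaling and 0.049 in the authors' table; Orai1 was -0.023 with muscle and fat and -0.000599 on its second probe, and Stim1 was 0.0071 with muscle and fat. Of 105 alternatives for the 15 correlations, 1 changed sign, Stim1 with adipocytes within slide 2 (-0.012).

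Leaving out 1 array turned the sign at these ranges. In DIO against Lean they were -0.20 to 0.19 for Cd36, -0.065 to 0.042 for Ffar2, -0.19 to 0.073 for Ffar3, -0.25 to 0.075 for Gpr84 and -0.17 to 0.17 for Kcna5. In DIO-R against DIO they were -0.034 to 0.077 for Ffar2, -0.25 to 0.017 for Ffar3 and -0.029 to 0.058 for Stim1. In DIO-R against Lean they were -0.20 to 0.0083 for Ffar1, -0.045 to 0.064 for Ffar2, -0.058 to 0.059 for Ffar4 and -0.012 to 0.052 for Orai1.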
